A study of Mus musculus with 8 samples.

Results

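Wild-type (WT) mouse embryonic stem cells (ESCs) were compared with the embryoid bodies (EBs) they had formed after 4 days of differentiation. EBs are aggregates that ESCs build when they are grown off the dish. The samples were chosen by their titles, 2 arrays of WT EBs D4 against 2 arrays of WT ESC D0, which are 4 of the 8 arrays in the series. All cells were CGR8, an ESC line that grows on gelatin without feeder cells and is recorded with donor strain 129P2/OlaHsd and background strain C57BL/6. For the EBs, trypsinised cells were put into hanging drops and then into suspension, in serum medium without LIF, the cytokine that keeps mouse ESCs undifferentiated. The ESCs at day 0 were kept in serum medium with LIF, so time, medium, LIF and aggregation all differed between the groups. The other 4 arrays held PML KD EBs D4 and PML KD ESC D0 (2 each), cells infected with the lentiviral vector pLKO.1 carrying an shRNA against PML and selected with puromycin. Virus of the empty vector is also named in the protocol, and the labels do not tell whether the WT cells had received it. Biotin-labelled cRNA was hybridised to Affymetrix arrays. No label says whether the arrays of a group held RNA of independent cultures, so each error below may reflect technical spread alone.

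When ESCs lose LIF and aggregate, they leave naive pluripotency, pass through a formative state that resembles the epiblast just after implantation, and then start to form germ layers. The outer cells of an EB become primitive endoderm. In the embryo primitive endoderm gives rise to the visceral endoderm, an absorptive epithelium that secretes serum proteins such as alpha-fetoprotein and apolipoproteins, and to the parietal endoderm, which lays down a thick basement membrane of type IV collagen and laminin. Pluripotency itself rests on a network of transcription factors around Oct4 (Pou5f1), Sox2 and Nanog, which LIF sustains through STAT3.

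Levels are log2 of the deposited signal of 1 probe set per gene, differences are log2 of WT EBs D4 minus log2 of WT ESC D0, and errors are standard errors of a limma fit over all 8 arrays. A gene was called when its Benjamini-Hochberg adjusted p over all 19938 genes was under 0.05. Signals of different probe sets are not compared with each other. Of all genes, 4849 were higher in WT EBs D4 (24.3%) and 5097 were lower (25.6%), so 49.9% were called. At least 2-fold, 632 were higher (3.17%) and 841 lower (4.22%). Arrays of the same group correlated at 0.9955 (EBs) and 0.9968 (ESCs) over all genes, and arrays of different groups at 0.9525 to 0.9548. The median signal of all probe sets was 195.7 and 197.9 on the WT EB arrays, against 171.2 and 169.4 on the WT ESC arrays. Over all genes the median difference was 0.06 on the deposited scale, -0.05 with quantile normalization and -0.15 once each array was shifted to a common median. Among the calls, 48.75% were higher on the deposited scale, 39.92% with quantile normalization and 22.99% with the median shift. With genes sorted by signal into 10 equal groups, the median difference of the 5 dimmest groups lay between 0.09 and 0.20 as deposited and between -0.04 and 0.0048 after quantile normalization, and in the brightest group it was -0.30 and -0.13. Small differences of dim genes are therefore given with their count after quantile normalization, where 17.4% of genes were called higher and 26.2% lower. After the median shift 11.2% were called higher and 37.7% lower, while leaving out WT EB replicate 1 or 2 gave 20.0% and 19.2% higher with 22.3% and 23.1% lower, and leaving out WT ESC replicate 1 or 2 gave 19.6% and 17.2% higher with 22.8% and 21.1% lower. All 1473 genes called with at least 2-fold change stayed called after quantile normalization and after the median shift. A second deposited table with log2 values per gene, quantile normalized here over all 8 arrays, served as an alternative source and is called the workbook below. No detection call was used. A probe set in the lowest quartile on both arrays of a group is named as dim there, because its level cannot be told from background. A difference between a dim and a brighter group is therefore a lower bound of the change on the deposited scale, whatever error the fit gives it. Each lower bound below is meant on that scale only, and other scalings can give smaller values. For Afp the difference was 6.70 as deposited, 6.50 after quantile normalization, 6.49 after the median shift and 5.77 in the workbook. Differences between a dim and a brighter group, those of Afp, Spink1, Cyp26a1 and Spink10, are among the 10 largest rises and falls, which were picked by measured value.

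**Figure D1:**
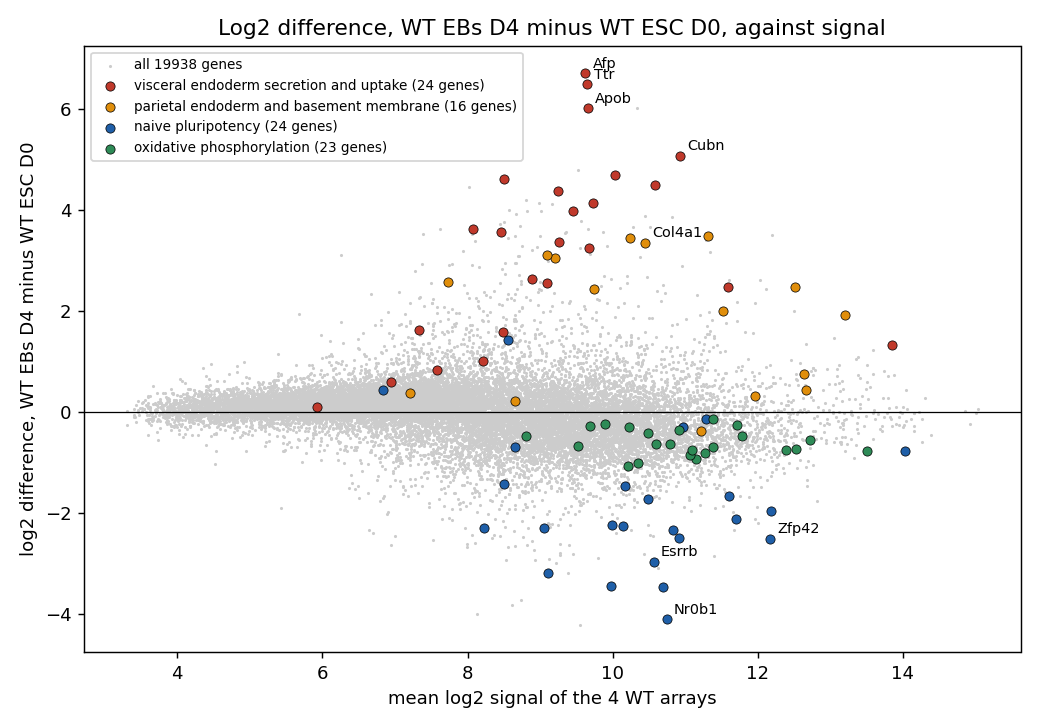
Log2 difference (WT EBs D4 minus WT ESC D0, vertical axis) against the mean log2 signal of the 4 WT arrays (horizontal axis), 1 point per gene. Grey points are all 19938 genes and coloured points are 4 lists: visceral endoderm genes (24) reach up to Afp at 6.70, basement membrane genes (16) and oxidative phosphorylation genes (23) lie mostly above and below 0, and naive pluripotency genes (24) reach down to Nr0b1 at -4.11.

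Defining markers were set against the labels. The 5 defining ESC markers Pou5f1, Nanog, Sox2, Zfp42 and Esrrb were all lower in WT EBs D4, with a summed linear signal of 10919 to 11119 on the EB arrays, against 40007 to 40393 on the ESC arrays. The visceral endoderm markers Afp, Ttr and Apoa1 summed to 20397 to 21449 on the EB arrays, against 335 to 406 on the ESC arrays. None of the 3 neural markers (Sox1, Pax6, Nes), the 2 trophoblast markers (Elf5, Tpbpa) or the 2 keratinocyte markers (Krt5, Krt14) was called as deposited. In the workbook Krt14 was called higher (1.83, adjusted p = 0.000467), while Elf5 (-1.09, adjusted p = 0.00168) and Nes were called lower. The 2 measured primitive streak markers (Mixl1, Eomes), 1 of 3 blood and endothelium markers and 1 of 2 cardiac markers were called higher as deposited, and none was lower. The blood and endothelium call was Cdh5 (0.37, adjusted p = 0.0446). Cdh5 was not called after quantile normalization (0.16, adjusted p = 0.373) and was called lower in the workbook (-0.84, adjusted p = 0.00265). The line needs no feeders. All 4 fibroblast markers (Col1a1, Col3a1, Thy1, Postn) were called higher as deposited. They summed to 1058 to 1062 on the EB arrays, against 711 to 717 on the ESC arrays. The part of fibroblast RNA in other results was not tested. Among the arrays used only for the last comparison, the PML KD ESC D0 arrays stood apart from the other 6 in Y-linked genes, as described there.

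Visceral endoderm transcripts had the largest median rise of the 44 gene lists in WT EBs D4. Of 24 measured genes for visceral endoderm secretion and uptake, 23 were higher, 21 of them at least 2-fold, and none was lower, beside 24.3% of all genes called higher. The list's median difference was 3.46, beside 0.06 over all genes, and it was 3.40 with 23 called higher after quantile normalization. Alb (albumin) was the exception, with levels of 5.98 and 5.99 in WT EBs D4 and 6.01 and 5.75 in WT ESC D0, dim on all 4 arrays (adjusted p = 0.493). The workbook had Alb higher (0.80, adjusted p = 0.00117), and all 23 list genes tested there were called higher. In whole EBs, more cells of a type and more RNA per cell cannot be told apart.

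Serum proteins led this list. Afp, which encodes alpha-fetoprotein, measured 12.97 and 12.97 in WT EBs D4, against 6.20 and 6.35 in WT ESC D0. Both ESC arrays lay in the lowest quartile and the groups were far from overlapping. The measured difference of 6.70 ± 0.08, or 104-fold (adjusted p = 3.48e-09), is a lower bound on the deposited scale. Ttr, the thyroxine carrier transthyretin, measured 13.01 and 12.77 in WT EBs D4 and 6.19 and 6.62 in WT ESC D0 (6.48 ± 0.23, adjusted p = 2.74e-07). The lower ESC value of Ttr lay in the lowest quartile of its array. Rbp4, the plasma carrier of retinol, rose by 4.12 ± 0.08 (adjusted p = 5.06e-08), and Trf, the iron carrier transferrin, by 2.54 ± 0.10 (adjusted p = 4.69e-07).

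Apolipoproteins moved with them. Apob, the structural protein of large lipoproteins, measured 12.65 and 12.67 in WT EBs D4, against 6.52 and 6.79 in WT ESC D0, a difference of 6.01 ± 0.10 (adjusted p = 1.92e-08). Apoa1, the main protein of HDL, measured 12.35 and 12.39 in WT EBs D4, against 7.56 and 7.82 in WT ESC D0 (4.68 ± 0.12, adjusted p = 7.08e-08). All EB values lay above all ESC values for both genes.

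The windows from 250 bases before to 50 bases after the annotated start of Afp, Apoa1 and Apob are shown because these genes rose together and belong to the secreted class; they are RefSeq sequences of build GRCm38.p6, read 5′ to 3′ along the gene. All 3 genes lie on the plus strand, with windows at chr5:90490464-90490763, chr9:46228380-46228679 and chr12:7977427-7977726. Capitals mark matches on either strand to GTTAAT, a core that HNF1 proteins read, and to TGTTTNC, a core that FOXA proteins read.
Afp: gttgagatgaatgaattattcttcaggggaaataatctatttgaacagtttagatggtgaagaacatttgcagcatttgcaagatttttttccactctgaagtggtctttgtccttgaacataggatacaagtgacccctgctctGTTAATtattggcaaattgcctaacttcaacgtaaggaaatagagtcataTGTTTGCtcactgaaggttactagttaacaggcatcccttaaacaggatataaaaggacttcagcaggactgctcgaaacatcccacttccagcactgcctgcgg
Apoa1: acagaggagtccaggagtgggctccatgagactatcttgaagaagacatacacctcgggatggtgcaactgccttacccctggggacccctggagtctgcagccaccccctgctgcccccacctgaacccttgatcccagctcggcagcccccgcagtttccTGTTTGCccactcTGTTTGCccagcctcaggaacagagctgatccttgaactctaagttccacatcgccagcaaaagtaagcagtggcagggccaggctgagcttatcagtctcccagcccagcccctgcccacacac
Apob: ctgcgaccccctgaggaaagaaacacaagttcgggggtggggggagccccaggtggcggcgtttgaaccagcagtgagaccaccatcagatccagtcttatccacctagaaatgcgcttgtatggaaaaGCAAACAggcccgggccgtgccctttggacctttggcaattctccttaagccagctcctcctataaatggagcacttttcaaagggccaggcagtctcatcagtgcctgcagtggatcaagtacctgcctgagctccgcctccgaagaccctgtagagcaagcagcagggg
The Afp window held GTTAAT at 105 and TGTTTNC at 55 bases before the start, the Apoa1 window held TGTTTNC at 88 and 75 bases before it, and the Apob window held it, on the other strand, at 121. The window of Cubn, an uptake gene of the same list that also rose, was scanned too and held no match to GTTAAT or TGTTTNC. Among 20 promoters found for the visceral endoderm list, 7 held GTTAAT (35.0%) and 10 held TGTTTNC, while 7.11% and 19.9% of all 15614 promoters did. GTTAAT was also in 2 of 9 promoters of core pluripotency genes (22.2%), a list that was lower, and TGTTTNC was in none of those 9. AGATAA, a core that GATA proteins read, was in 1 of the 20 (5.0%) and in 10.8% of all. These are matches of letters and say nothing of binding.

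Uptake genes rose as well. Cubn encodes cubilin, the endocytic receptor for vitamin B12 with intrinsic factor and for albumin, and measured 13.46 and 13.46 in WT EBs D4, against 8.29 and 8.50 in WT ESC D0 (5.07 ± 0.10, adjusted p = 5.06e-08). Its membrane partner Amn rose by 3.25 ± 0.15, the receptor megalin (Lrp2) by 2.47 ± 0.07, and Dab2, the adaptor that links these receptors to clathrin, by 4.49 ± 0.17. Car4, a membrane-bound carbonic anhydrase, measured 13.36 and 13.31 in WT EBs D4, against 7.42 and 7.24 in WT ESC D0, a 64.2-fold difference (6.00 ± 0.09, adjusted p = 1.29e-08). Spink1, a secreted trypsin inhibitor, measured 10.89 and 10.72 in WT EBs D4, against 6.07 and 6.33 in WT ESC D0, where it was dim (lower bound 4.60 ± 0.15).

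**Figure D2:**
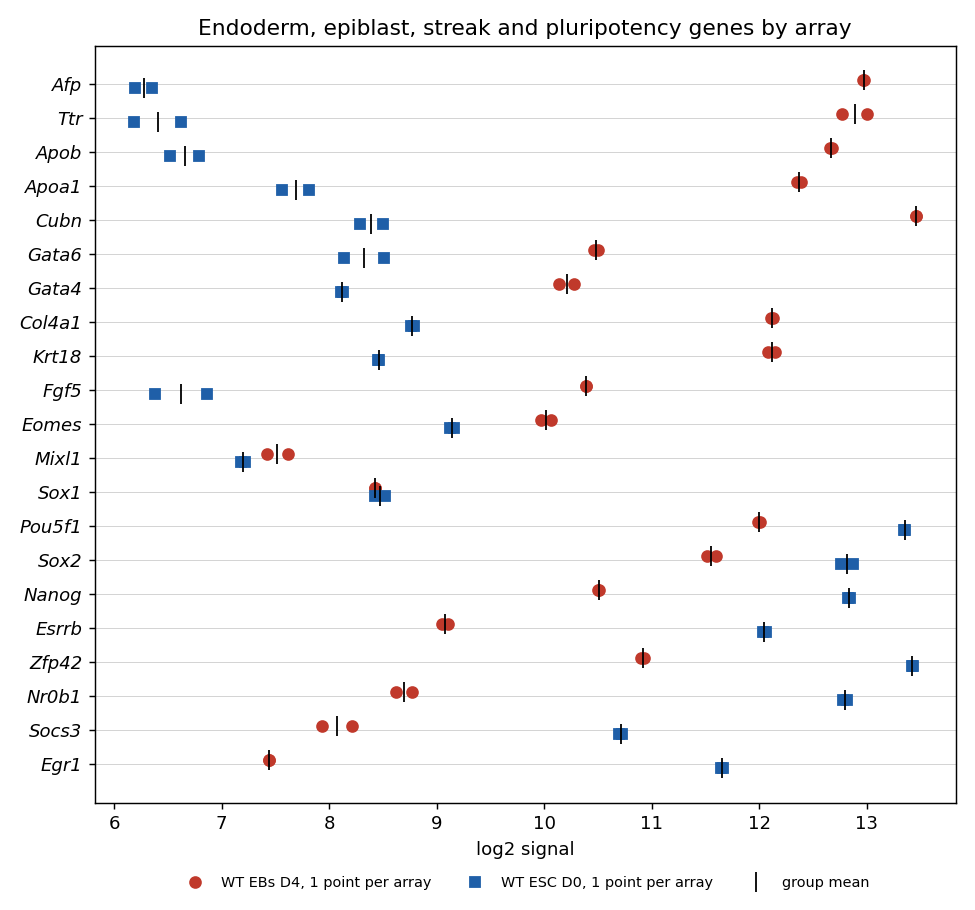
Log2 signal (horizontal axis) of 21 genes by array, with WT EBs D4 and WT ESC D0 as separate points and group means as bars. Endoderm genes at the top lie to the right in WT EBs D4, Sox1 overlaps between the groups, and pluripotency, Socs3 and Egr1 points at the bottom lie to the left in WT EBs D4.

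Endoderm transcription factors were higher. All 10 measured genes of the list, which holds factors of extraembryonic and embryonic endoderm, were called higher as deposited, 7 of them at least 2-fold, with a median of 1.28, and 8 were called higher after quantile normalization. Gata6, the factor that sets primitive endoderm against epiblast, measured 10.50 and 10.46 in WT EBs D4, against 8.14 and 8.51 in WT ESC D0 (2.16 ± 0.15, adjusted p = 1.05e-05). Gata4, which acts beside it, measured 10.28 and 10.14 in WT EBs D4, against 8.11 and 8.12 in WT ESC D0 (2.09 ± 0.08, adjusted p = 4.36e-07). EB and ESC values did not overlap for either gene. Hnf4a, a nuclear receptor that drives apolipoprotein genes in the visceral endoderm, rose by 1.40 ± 0.09, Cited1, a transcriptional coactivator of the early visceral endoderm, by 2.37 ± 0.08, and Sox7 by 0.87 ± 0.13. Sox17 rose by 1.72 ± 0.19 and Foxa2 by 1.15 ± 0.12. Both, like Foxa1 (1.16 ± 0.14), also belong to the definitive endoderm list, so they do not separate the embryonic from the extraembryonic tissue.

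Basement membrane genes rose with the endoderm. Of 16 measured genes of parietal endoderm and basement membrane, 15 were higher, 10 at least 2-fold, and 1 was lower, with a median of 2.21. Col4a1 and Col4a2 encode the chains of type IV collagen. Col4a1 measured 12.11 and 12.13 in WT EBs D4, against 8.76 and 8.79 in WT ESC D0 (3.35 ± 0.09), and Col4a2 rose by 3.45 ± 0.11. The laminin chain Lamb1 measured 13.08 and 13.04 in WT EBs D4, against 9.55 and 9.60 in WT ESC D0 (3.48 ± 0.08, adjusted p = 5.58e-08). Lama1, another chain of the same laminin, rose by 1.99 ± 0.07. The collagen-binding protein Sparc rose by 1.92 ± 0.07 and Srgn, the proteoglycan serglycin, by 2.47 ± 0.07. Thbd (thrombomodulin), a surface marker of parietal endoderm, was called at 0.38 ± 0.13 (adjusted p = 0.0361) but not after quantile normalization (0.16, adjusted p = 0.338).

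Pluripotency transcripts fell without being lost. Of 13 measured core pluripotency genes, 12 were lower and none was higher, beside 25.6% of all genes called lower, with a median of -1.28, and the count of 12 was the same after quantile normalization. Nanog measured 10.50 and 10.51 in WT EBs D4, against 12.83 and 12.84 in WT ESC D0, the replicates almost coinciding within each group. The difference was -2.33 ± 0.07 (adjusted p = 1.55e-07). Pou5f1 measured 12.003 and 11.988 in WT EBs D4, against 13.35 and 13.36 in WT ESC D0 (-1.36 ± 0.08, adjusted p = 3.42e-06). Sox2 measured 11.60 and 11.51 in WT EBs D4, against 12.88 and 12.76 in WT ESC D0 (-1.26 ± 0.08, adjusted p = 5.59e-06). All 3 kept EB levels far above the lowest quartile of the arrays.

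Others of this list changed by different amounts. Gdf3, a TGF-beta family ligand, fell by 2.03 ± 0.08 on the log2 scale, Dppa2 by 1.49 ± 0.08, and L1td1 by 1.28 ± 0.08. Sall4, a zinc finger factor that binds with Oct4, fell by 0.94 ± 0.07, the Nodal co-receptor gene Tdgf1 by 0.86 ± 0.07 and Dppa4 by 0.42 ± 0.07. Utf1 measured 11.86 and 11.90 in WT EBs D4 and 12.04 and 12.09 in WT ESC D0 and was not called (-0.19 ± 0.09, adjusted p = 0.103).

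The naive pluripotency genes fell further. Of 24 measured, 21 were lower, 18 of them at least 2-fold, and 2 were higher, with a median of -2.18. Nr0b1, which encodes the orphan nuclear receptor DAX1, measured 8.62 and 8.77 in WT EBs D4, against 12.78 and 12.81 in WT ESC D0. The difference was -4.11 ± 0.09 (adjusted p = 5.06e-08). Nr5a2, a nuclear receptor that binds the Oct4 gene, measured 7.51 and 7.52 in WT EBs D4, against 10.75 and 10.68 in WT ESC D0 (-3.19 ± 0.07). Esrrb, an orphan nuclear receptor of the naive network, measured 9.11 and 9.05 in WT EBs D4, against 12.04 and 12.06 in WT ESC D0 (-2.97 ± 0.07). In all 3 the EB values lay well under the ESC values.

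Most other naive genes followed, but Fgfbp1 rose by 1.42 ± 0.08 and Dppa3 by 0.44 ± 0.10. Fgfbp1 was not called in the workbook (0.48, adjusted p = 0.052), and Dppa3 was not called after quantile normalization (0.23, adjusted p = 0.119). The differences were -2.51 ± 0.07 for Zfp42 (Rex1), -2.49 ± 0.07 for Tfcp2l1, -2.35 ± 0.11 for Klf2, -2.30 ± 0.11 for Prdm14, -2.24 ± 0.09 for Klf4 and -1.66 ± 0.09 for Tbx3, all transcription regulators of the naive state. Tcl1, a coactivator of AKT kinases, fell by 3.45 ± 0.11, and Jam2, a junctional adhesion molecule of ESCs, by 3.47 ± 0.13. Lrrc34 fell by 3.82 ± 0.10, Ccdc141 fell by 3.72 ± 0.11, and Ceacam1, an adhesion receptor, fell by 3.17 ± 0.08. Spink10, a member of a protease inhibitor family, measured 6.00 and 6.24 in WT EBs D4, where it was dim, against 10.05 and 10.21 in WT ESC D0 (-4.01 ± 0.19, a fall of at least this size).

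The Nanog window is shown because its composite element is the textbook site of Oct4 and Sox2 (chr6:122707315-122707614, plus strand, the same RefSeq build). Capitals mark TTTGCAT, part of the octamer that Oct4 reads, and ACAATG, a SOX core.
Nanog: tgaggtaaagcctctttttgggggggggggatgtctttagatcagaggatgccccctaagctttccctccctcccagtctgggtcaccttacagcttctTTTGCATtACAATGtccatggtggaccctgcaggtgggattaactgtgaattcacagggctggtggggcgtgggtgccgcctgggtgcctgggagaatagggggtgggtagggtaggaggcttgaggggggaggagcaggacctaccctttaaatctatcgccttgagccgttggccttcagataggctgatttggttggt
The octamer letters began 151 bases and the SOX letters 143 bases before this annotated start, 1 base apart. Either motif alone was common enough, TTTGCAT in 4.82% and ACAATG in 11.8% of all promoters. Among 17 promoters of naive pluripotency genes the shares were 5.88% and 11.8%. Among 9 promoters of core pluripotency genes, Nanog included, each share was 22.2%. The windows of Nr0b1, Zfp42 and Esrrb were scanned too. That of Nr0b1 held neither motif, that of Zfp42 held TTTGCAT only, and Esrrb held ACAATG only, in 1 of 2 windows.

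Genes downstream of LIF were lower too. Of 16 measured genes of the LIF and STAT3 pathway, 11 were lower and 3 higher, with a median of -0.72. Socs3, the feedback inhibitor that STAT3 induces, measured 8.22 and 7.94 in WT EBs D4, against 10.70 and 10.73 in WT ESC D0 (-2.64 ± 0.12, adjusted p = 1.18e-06). The receptor gene Lifr fell by 1.42 ± 0.07, its partner Il6st (gp130) by 0.77 ± 0.08, and Stat3 itself by 0.83 ± 0.08. Junb fell by 0.60 ± 0.08, and Jak1 was not called (-0.21 ± 0.09, adjusted p = 0.0869).

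The immediate early genes Egr1 and Fos, which answer growth factor and ERK signalling within minutes, were among the 10 largest falls. Egr1 measured 7.44 and 7.44 in WT EBs D4, against 11.67 and 11.64 in WT ESC D0, a difference of -4.21 ± 0.12 or 18.5-fold (adjusted p = 1.25e-07). Fos measured 7.75 and 7.82 in WT EBs D4, against 10.97 and 10.98 in WT ESC D0 (-3.18 ± 0.07, adjusted p = 5.06e-08). Zfp36, an RNA-binding immediate early product, fell by 1.11 ± 0.09. ESCs taken from a dish and EBs taken from suspension were harvested differently, and the part of that step in these genes was not tested.

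Of 10 measured 2-cell-like genes, 3 were higher and 3 lower as deposited, 2 and 5 after quantile normalization, and 2 and 6 after the median shift. Pramel6 and Pramel7, which are shared with naive ESCs, fell by at least 2.02 ± 0.11 and 1.36 ± 0.09, being dim on both EB arrays, and Tcstv3 was higher by 0.57 ± 0.13 (adjusted p = 0.00747) as deposited but was not called after quantile normalization (0.37, adjusted p = 0.0648).

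Formative and primed epiblast genes rose in WT EBs D4. Of 20 measured, 13 were higher and 3 lower with a median of 0.72, and 14 were higher after quantile normalization. Fgf5, the ligand that marks the post-implantation epiblast, measured 10.38 and 10.39 in WT EBs D4, against 6.38 and 6.87 in WT ESC D0 (3.76 ± 0.16, adjusted p = 7.73e-07). The lower ESC value of Fgf5 lay in the lowest quartile of its array. The EB values were more than 3 log2 units above either ESC value. Pou3f1 (Oct6), a POU factor of the primed state, rose by 1.50 ± 0.08, the de novo DNA methyltransferase gene Dnmt3b by 0.81 ± 0.10, the Wnt effector Lef1 by 0.91 ± 0.09 and Otx2 by 0.49 ± 0.08. Cldn6, a claudin of embryonic epithelia, rose by 3.39 ± 0.08. Dnmt3a was not called (-0.14 ± 0.08, adjusted p = 0.167), and Foxd3 and Tcf15 fell by 1.95 ± 0.15 and 0.58 ± 0.09, of which Tcf15 did not hold in the workbook (0.04).

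The cluster of miR-302 and miR-367, microRNAs that primed pluripotent cells transcribe more than naive ones, is shown by its mature sequences with the seed (bases 2 to 8) in capitals, because 3 of its members share or nearly share a seed. The sequences are from RefSeq, chromosome 3, plus strand, build GRCm38.p6.
miR-302b-3p: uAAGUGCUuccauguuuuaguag
miR-302d-3p: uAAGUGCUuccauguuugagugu
miR-302c-3p: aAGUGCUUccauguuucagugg
miR-367-3p: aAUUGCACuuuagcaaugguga
The first and second of these have the same seed, the third carries it shifted by 1 base, and miR-367 has a different one. The probe sets are annotated to the microRNA genes and not to the mature forms. Mir302d measured 7.47 and 7.56 in WT EBs D4, against 6.60 and 6.42 in WT ESC D0 (1.01 ± 0.20, adjusted p = 0.0033). Mir302c (0.83 ± 0.15, adjusted p = 0.00211) and Mir302a (0.75 ± 0.10, adjusted p = 0.00043) passed the test, but both were dim on all 4 arrays, so neither level can be told from background. Mir302b (0.24 ± 0.16, adjusted p = 0.248) and Mir367 (0.37 ± 0.15, adjusted p = 0.0655), also dim, were not called, except Mir302b without WT EB replicate 1 (0.49, adjusted p = 0.0247) and Mir367 without WT ESC replicate 2 (0.56, adjusted p = 0.0163). Mir363, from an X-linked microRNA cluster, rose by 1.84 ± 0.11 and Mir18 by 0.92 ± 0.10. Over all 13 measured precursors linked to pluripotency, 9 were higher as deposited, 7 after quantile normalization, and none was lower.

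Primitive streak and mesendoderm genes showed a small, partly scale-dependent rise. Of 22 measured, 15 were higher and 2 lower as deposited (median 0.33), 7 were higher after quantile normalization or the median shift (medians 0.15 and 0.12), and 9 were higher without WT EB replicate 1. Eomes, a T-box factor of the streak and also of visceral endoderm, measured 9.97 and 10.06 in WT EBs D4, against 9.12 and 9.16 in WT ESC D0 (0.87 ± 0.08, adjusted p = 3.11e-05). Cer1, a secreted antagonist made by anterior visceral and definitive endoderm, measured 9.55 and 9.52 in WT EBs D4, against 6.36 and 6.34 in WT ESC D0, where it was dim (lower bound 3.18 ± 0.08). Cyp26a1, the enzyme that degrades retinoic acid, measured 10.19 and 10.32 in WT EBs D4, against 5.92 and 5.68 in WT ESC D0, where it was dim (lower bound 4.46 ± 0.11, adjusted p = 7.08e-08).

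Brachyury (T), a defining streak gene, was not analysed here. Lhx1, also a gene of the anterior visceral endoderm, rose by 1.35 ± 0.10 and Fgf8 by 0.54 ± 0.08, and both calls held after quantile normalization, although Fgf8 was lower in the workbook (-0.89). Mixl1 (0.32 ± 0.09), Gsc (0.27 ± 0.09), Wnt3 (0.31 ± 0.09), Mesp1 (0.38 ± 0.11) and Evx1 (0.27 ± 0.08), which mark nascent mesoderm or endoderm of the streak, were called as deposited but none of them was after quantile normalization, with differences of 0.07 to 0.17, and Mesp1 was called lower in the workbook (-0.39). Cyp26a1, Cer1 and Lhx1 were the 3 genes of the list that passed 2-fold.

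Definitive endoderm and mesoderm lists moved through a few genes. Of 10 definitive endoderm and axial mesoderm genes, 5 were higher and 1 lower, under both scalings. Tmprss2, a membrane serine protease of epithelia, rose by 4.13 ± 0.14 and Cxcr4, a chemokine receptor of definitive endoderm, by 0.91 ± 0.09, while the notochord genes Chrd (0.21 ± 0.11) and Noto (0.20 ± 0.13) were not called. Of 23 early mesoderm genes, 9 were higher and 3 lower as deposited, and 6 and 3 after quantile normalization. Pdgfra, a receptor kinase that primitive endoderm shares with paraxial mesoderm, measured 11.47 and 11.43 in WT EBs D4, against 7.60 and 7.74 in WT ESC D0 (3.78 ± 0.14, adjusted p = 3.52e-07). The Notch ligand Dll1 rose by 2.25 ± 0.13.

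Other mesoderm genes moved less. Kdr (Flk1), the receptor of blood and vessel precursors, measured 6.59 and 6.87 in WT EBs D4 and 6.86 and 6.64 in WT ESC D0 (-0.03 ± 0.12, adjusted p = 0.869). The groups overlapped, while the workbook had Kdr lower (-1.42, adjusted p = 0.00642). Msgn1 (0.27 ± 0.12), Dll3 (0.13 ± 0.13) and Foxc1 (0.07 ± 0.12) were not called, and Hand1 (0.46 ± 0.07) and Foxf1 (0.46 ± 0.09) were called under both scalings. Isl1 fell by 0.53 ± 0.09 (0.29 and not called in the workbook) and Smarcd3 by 0.97 ± 0.15.

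Blood, endothelial and cardiac genes gave mixed calls. Of 21 blood and endothelium genes, 8 were higher and 3 lower, beside 24.3% of all genes higher and 25.6% lower. Tek (Tie2), a receptor kinase, and Pecam1, an adhesion molecule that mouse ESCs also carry, fell by 2.31 ± 0.10 and 1.29 ± 0.08. Egfl7 rose by 1.25 ± 0.09 and Runx1 by 0.75 ± 0.10. Tal1, Lmo2, Etv2 and Fli1, the factors of blood and vessel precursors, were not called (differences -0.00 to 0.29), and the embryonic globin gene Hbb-bh1 was dim on all 4 arrays (-0.13 ± 0.10, adjusted p = 0.302, and lower after quantile normalization, adjusted p = 0.044). Of 12 cardiac muscle genes, 3 were higher and 2 lower, 2 and 2 after quantile normalization, 1 and 3 after the median shift, and 6 and 3 in the workbook. The troponin gene Tnnc1 was higher by 0.60 ± 0.08 and Mybpc3 by 0.43 ± 0.09, Myl4 was lower by 0.49 ± 0.13 and the calcium channel gene Ryr2 by 0.32 ± 0.08. Without WT ESC replicate 2 neither Myl4 (-0.37) nor Ryr2 (-0.29) was called, and Myl4 was not called without WT EB replicate 1 either (-0.37). The contractile genes Myh6, Actc1 and Myl7 were not called.

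Neural and HOX genes depended on the scale. Of 22 neuroectoderm genes, 9 were higher and 2 lower as deposited and none reached 2-fold, 2 were higher and 3 lower after quantile normalization, and 5 were higher without WT EB replicate 1 or without WT ESC replicate 2. Sox1, the earliest neural SOX gene, measured 8.42 and 8.43 in WT EBs D4 and 8.52 and 8.42 in WT ESC D0 (-0.05 ± 0.11, adjusted p = 0.756). Pax6 (-0.14 ± 0.07) and Nes (0.14 ± 0.12) were not called either, except that Pax6 was called lower after quantile normalization (-0.35, adjusted p = 0.00332). The neuronal genes Tubb3 and Ncam1 fell by 0.81 ± 0.11 and 0.71 ± 0.10. Of 37 HOX genes, 14 were higher and 2 lower as deposited, 2 and 2 after quantile normalization or the median shift, and 6 were higher without WT ESC replicate 2. Hoxb1, an early 3′ gene of its cluster, rose by 0.52 ± 0.09 as deposited (adjusted p = 0.00171) and by 0.38 after quantile normalization (adjusted p = 0.00879) but not in the workbook (-0.11). Hoxc12 and Hoxc13, at the other end of theirs, fell by 1.86 ± 0.13 and 1.31 ± 0.14.

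Germ line genes went both ways, with 9 of 21 higher and 5 lower, beside 24.3% of all genes higher and 25.6% lower. Mael, which acts in the piRNA pathway, rose by 1.61 ± 0.14, Sycp3, a synaptonemal complex protein, by 1.58 ± 0.21 and the RNA helicase gene Ddx4 by 1.14 ± 0.11. Prdm1 (Blimp1), Dazl and Kit fell by 1.63 ± 0.10, 1.44 ± 0.13 and 0.92 ± 0.07. Of 12 trophoblast genes, 5 were higher and none lower (3 higher without WT EB replicate 2, and 3 higher and 2 lower after the median shift). Plac1 and Peg10, placental genes, rose by 1.48 ± 0.15 and 1.47 ± 0.08, while Elf5, Tfap2c and Ascl2 were not called.

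**Figure D3:**
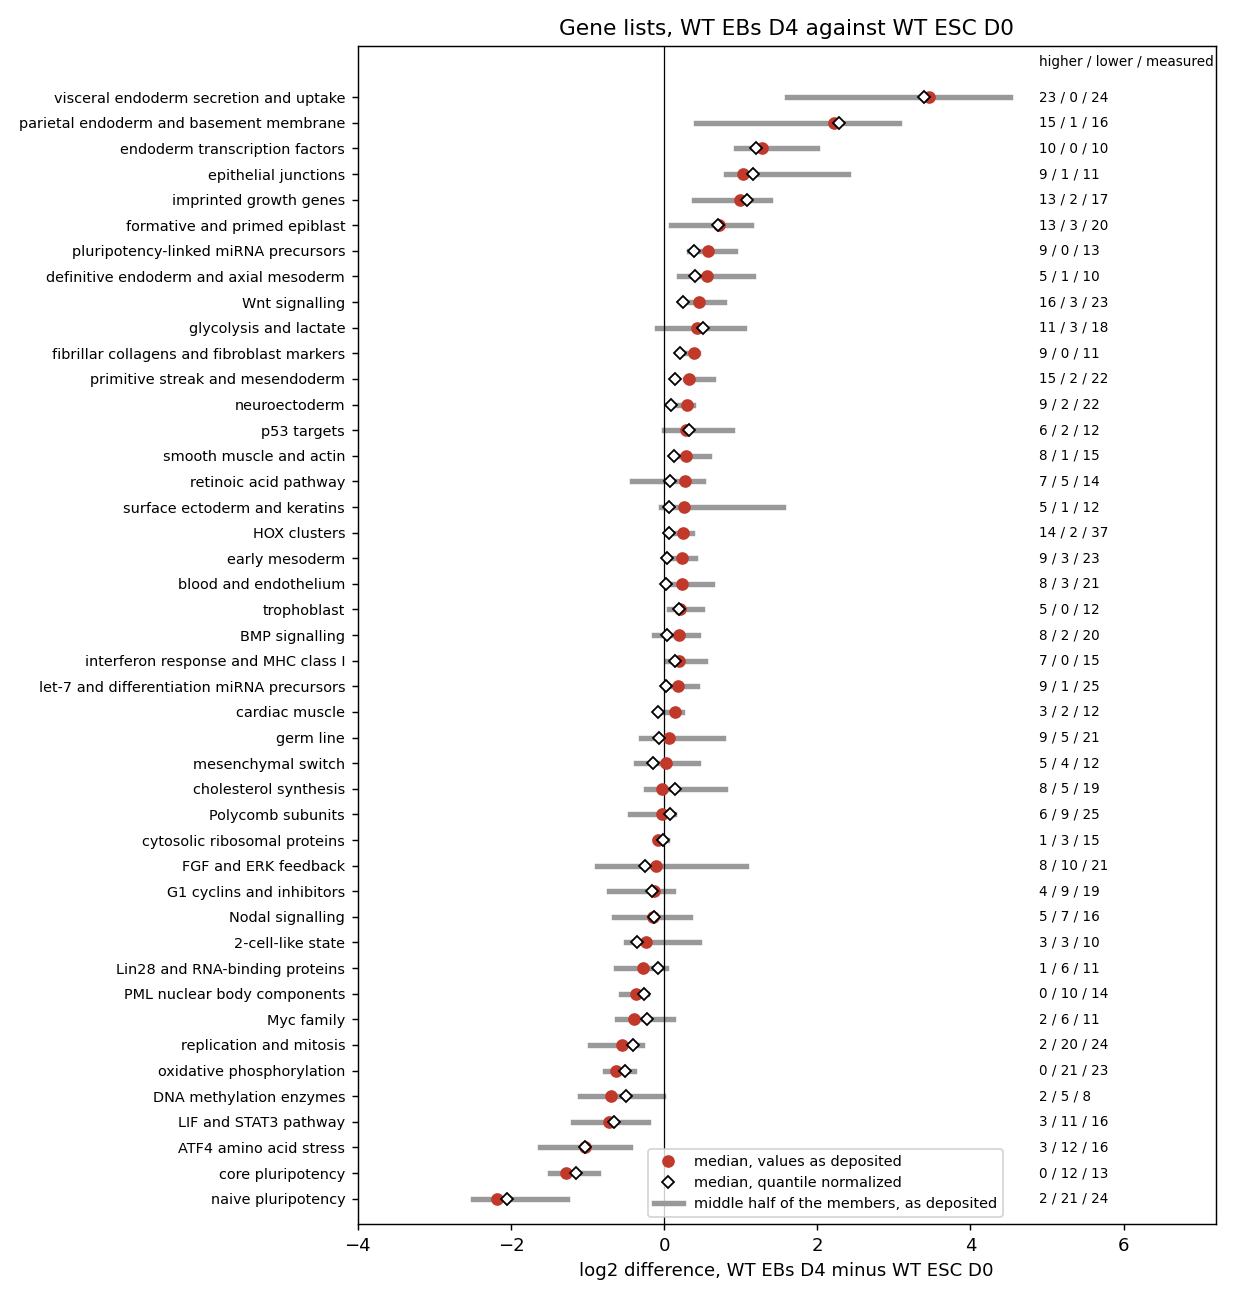
Median log2 difference (WT EBs D4 minus WT ESC D0) of each of 44 gene lists, as deposited and after quantile normalization, with grey bars from the lower to the upper quartile of the members as deposited. Numbers at the right give members higher, lower and measured, and the lists run from visceral endoderm at 3.46 to naive pluripotency at -2.18.

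Each signalling list held calls in both directions, beside 24.3% of all genes called higher and 25.6% lower. In the Nodal list 5 of 16 were higher and 7 lower. Nodal, the ligand, measured 9.47 and 9.44 in WT EBs D4, against 9.94 and 9.95 in WT ESC D0 (-0.49 ± 0.07, adjusted p = 0.00051). Its feedback inhibitor Lefty2 fell by 1.45 ± 0.11 while Lefty1 was not called (0.09 ± 0.08, adjusted p = 0.355). The transcription partner Foxh1 fell by 0.45 ± 0.07 and the inhibitory Smad7 by 0.70 ± 0.10. Furin, the protease that matures Nodal, rose by 1.29 ± 0.09 and the SMAD repressor Skil by 1.23 ± 0.08.

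BMP ligands moved in opposite directions. Bmp4, which supports ESC self-renewal, measured 8.38 and 8.32 in WT EBs D4, against 11.23 and 11.28 in WT ESC D0 (-2.90 ± 0.07, adjusted p = 7.08e-08). Bmp2, a ligand of visceral endoderm, measured 8.15 and 8.14 in WT EBs D4, against 6.50 and 6.46 in WT ESC D0 (1.67 ± 0.09, adjusted p = 2.65e-06). Bmp7 rose by 0.87 ± 0.12 and the receptor gene Bmpr2 by 1.32 ± 0.09. The direct target Id1 rose by 0.34 ± 0.08, and Id2 (-0.09 ± 0.09) and Id3 (-0.15 ± 0.08) were not called. In the whole BMP list 8 of 20 were higher and 2 lower as deposited, and 4 were higher and 8 lower after the median shift.

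In the Wnt list 16 of 23 were higher and 3 lower as deposited, and 11 and 3 after quantile normalization. Secreted antagonists stood out. Frzb measured 8.30 and 8.62 in WT EBs D4, against 6.17 and 6.25 in WT ESC D0, where it was dim (lower bound 2.26 ± 0.12). Dkk1 measured 9.40 and 9.67 in WT EBs D4, against 7.52 and 7.32 in WT ESC D0 (2.12 ± 0.14, adjusted p = 8.14e-06). Sfrp1 fell by 1.37 ± 0.07 and Notum, a Wnt deacylase, by 1.51 ± 0.10. Tcf7l1, the repressor that restrains pluripotency genes, fell by 1.35 ± 0.08, and the feedback target Axin2 rose by 0.42 ± 0.08. Wnt5a, Wnt5b and Sp5 were called as deposited (0.33 to 0.46) but not after quantile normalization.

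In the FGF and ERK list 8 of 21 were higher and 10 lower, the same counts as after quantile normalization. The receptors Fgfr2 and Fgfr1 differed: Fgfr2, a receptor gene of primitive endoderm and epithelia, measured 9.39 and 9.51 in WT EBs D4, against 7.61 and 7.62 in WT ESC D0 (1.84 ± 0.08), and Fgfr1 measured 10.14 and 10.17 in WT EBs D4 and 10.13 and 10.16 in WT ESC D0 (0.01 ± 0.07, adjusted p = 0.959). The ESC ligand Fgf4 fell by 1.14 ± 0.07 while Fgf15 rose by 1.06 ± 0.09. Targets and inhibitors of ERK signalling were lower, Etv5 by 1.09 ± 0.09, Spry2 by 0.97 ± 0.10, Spry4 by 0.87 ± 0.09, Etv4 by 0.65 ± 0.10 and Dusp6 by 0.47 ± 0.08. Dusp4, another ERK phosphatase gene, rose by 1.55 ± 0.07.

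Retinoic acid genes other than Cyp26a1 split. Rdh10, which makes retinal from retinol, rose by 1.69 ± 0.08, the binding protein gene Crabp2 by 0.56 ± 0.09 and the retinol receptor gene Stra6 by 0.47 ± 0.12. The last was not called after quantile normalization. Aldh1a2, which makes retinoic acid, fell by 0.98 ± 0.18, the receptor gene Rara by 1.11 ± 0.09 and Meis2 by 1.62 ± 0.12. Of 14 genes, 7 were higher and 5 lower as deposited, and 4 and 5 after quantile normalization.

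Epithelial genes rose. Of 11 junction genes 9 were higher and 1 lower under both scalings, with a median of 1.03. Esrp1, a splicing factor of epithelia, measured 10.62 and 10.56 in WT EBs D4, against 7.23 and 7.42 in WT ESC D0 (3.27 ± 0.08). Cldn7 rose by 3.24 ± 0.09, Epcam by 1.55 ± 0.07, the desmosomal gene Dsp by 1.49 ± 0.08 and E-cadherin (Cdh1) by 0.62 ± 0.08. The simple-epithelial keratins moved with them. Krt18 measured 12.08 and 12.15 in WT EBs D4, against 8.46 and 8.45 in WT ESC D0 (3.66 ± 0.10, adjusted p = 9.11e-08), Krt19 rose by 3.08 ± 0.10 and Krt8 by 2.54 ± 0.14. In the whole list of surface ectoderm and keratin genes 5 of 12 were higher and 1 lower, and 5 and 2 after quantile normalization. The stratified-epithelium regulator Trp63 was not called (-0.20 ± 0.15, adjusted p = 0.301).

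Mesenchymal genes did not form a common direction, with 5 of 12 higher and 4 lower as deposited and 3 higher without WT ESC replicate 1 or WT EB replicate 1. Over all genes 24.3% were higher and 25.6% lower as deposited. N-cadherin (Cdh2) measured 9.48 and 9.55 in WT EBs D4, against 6.67 and 6.56 in WT ESC D0 (2.90 ± 0.10). Vim (vimentin), Zeb1 and Fn1 (fibronectin) fell by 1.47 ± 0.07, 1.77 ± 0.18 and 0.66 ± 0.08. Snai1 was higher by 0.29 ± 0.09 (adjusted p = 0.0285, not called in the workbook or without WT EB replicate 1, at 0.22, or WT ESC replicate 1, at 0.23), and Zeb2 was not called (-0.00 ± 0.08). Of 11 fibrillar collagen and fibroblast genes 9 were higher as deposited and 4 after quantile normalization, all under 2-fold, with 5 called without either ESC array and 4 without WT EB replicate 2. In the smooth muscle and actin list 8 of 15 were higher and 1 lower. The YAP targets Ccn1 and Ccn2 rose by 1.49 ± 0.08 and 0.64 ± 0.08 and Tpm1 (tropomyosin) by 1.74 ± 0.10, while Acta2 and Cnn1 were not called.

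Imprinted growth genes rose together, with 13 of 17 higher and 2 lower under both scalings and a median of 0.99. Igf2, the fetal growth factor, measured 11.93 and 11.90 in WT EBs D4, against 7.11 and 7.14 in WT ESC D0, 27.6-fold higher (4.79 ± 0.13, adjusted p = 8.87e-08). Sgce rose by 2.60 ± 0.11, Peg3 by 2.40 ± 0.09, the cell cycle inhibitor gene Cdkn1c by 1.15 ± 0.08, the long noncoding RNA gene Meg3 by 1.05 ± 0.08, Igf2r, the receptor that clears IGF2, by 1.01 ± 0.08 and Mest by 0.99 ± 0.08. Plagl1, a zinc finger regulator of other imprinted genes, fell by 1.83 ± 0.09. Grb10 was not called as deposited (0.18 ± 0.07, adjusted p = 0.0572) and was higher after quantile normalization (0.31, adjusted p = 0.00571).

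Enzymes of DNA methylation were mostly lower, 5 of 8, with 2 higher (1 after quantile normalization). The TET dioxygenase genes Tet2 and Tet1, which oxidise methylcytosine, fell by 2.27 ± 0.09 and 1.10 ± 0.07. The maintenance genes Uhrf1 and Dnmt1 fell by 1.09 ± 0.07 and 0.88 ± 0.08, and the cofactor gene Dnmt3l by 0.51 ± 0.08, against the rise of Dnmt3b. Of 25 Polycomb genes 6 were higher and 9 lower as deposited, 4 and 9 after quantile normalization, and 2 and 13 after the median shift. The deposited counts are 24.0% and 36.0% of the list, beside 24.3% and 25.6% of all genes. Pcgf5 measured 10.20 and 10.25 in WT EBs D4, against 7.80 and 7.81 in WT ESC D0 (2.42 ± 0.10). Jarid2, Eed and Mtf2, which belong to or recruit PRC2, fell by 1.19 ± 0.07, 1.12 ± 0.10 and 0.84 ± 0.08, the catalytic gene Ezh2 by 0.41 ± 0.07, and Cbx7 was not called (-0.12 ± 0.07). Of 11 genes of the Lin28 list, RNA-binding proteins and let-7 targets, 6 were lower and 1 higher as deposited, and 4 and 1 after quantile normalization. Lin28a, which blocks let-7 maturation, was not called (0.03 ± 0.08, adjusted p = 0.795), and Igf2bp3 and Hmga2 fell by 0.93 ± 0.07 and 0.78 ± 0.08, while the workbook had Hmga2 higher (0.41). Among 25 let-7 and differentiation microRNA precursors, 16 of them dim on all 4 arrays, 9 were higher and 1 lower as deposited and 4 and 1 after quantile normalization.

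Replication genes fell. Of 24 replication and mitosis genes 20 were lower and 2 higher, with a median of -0.55, beside 25.6% of all genes called lower. Bright genes were called lower more often, 1135 of 1994 in the brightest of the 10 signal groups. After quantile normalization 14 of the 24 were lower, beside 26.2% of all genes. Mcm6, a subunit of the replicative helicase, measured 10.47 and 10.51 in WT EBs D4, against 11.95 and 11.92 in WT ESC D0 (-1.45 ± 0.07, adjusted p = 1.36e-06). Mcm3, Mcm2 and Mcm4 fell by 1.27, 1.23 and 1.23 (each ± 0.07), the nucleotide reductase gene Rrm2 by 1.09 ± 0.08 and the sliding clamp gene Pcna by 0.97 ± 0.07. The proliferation marker gene Mki67 was lower by 0.25 ± 0.07 as deposited (adjusted p = 0.0229) and was not called after quantile normalization (-0.07, adjusted p = 0.454). Cdk1 was not called (-0.06 ± 0.08), except in the workbook (-0.46, adjusted p = 0.0194).

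Myc, which drives growth and cell cycle entry, measured 8.05 and 8.22 in WT EBs D4, against 10.14 and 10.05 in WT ESC D0 (-1.96 ± 0.11, adjusted p = 3.05e-06), and Mycn fell by 0.62 ± 0.07. Of 11 genes of the Myc family 6 were lower and 2 higher. Of 19 G1 genes 9 were lower and 4 higher. Cdk6 and Cdk2 fell by 1.58 ± 0.09 and 1.57 ± 0.09, Ccnd3 by 0.91 ± 0.09, and Ccnd2, a D-type cyclin like it, rose by 0.85 ± 0.14. Ccne1 was not called (-0.08 ± 0.07). Of 12 p53 targets 6 were higher and 2 lower, with Perp rising by 1.70 ± 0.14, Btg2 by 1.36 ± 0.08 and the BH3-only gene Pmaip1 by 1.33 ± 0.10, while Ccng1 (0.01 ± 0.07) was not called and Mdm2 (0.15 ± 0.09, adjusted p = 0.18) was called higher after quantile normalization (0.34, adjusted p = 0.00993).

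Energy metabolism changed in opposite ways for respiration and glycolysis. Of 23 oxidative phosphorylation genes 21 were lower and none higher, with a median of -0.63, beside 25.6% of all genes called lower. In the brightest of the 10 signal groups 1135 of 1994 genes were called lower, with a median of -0.30. After quantile normalization 17 of the 23 were lower with a median of -0.51, beside 26.2% of all genes and a median of -0.13 in that brightest group. The complex I subunit gene Ndufs1 measured 9.67 and 9.68 in WT EBs D4, against 10.75 and 10.73 in WT ESC D0 (-1.06 ± 0.08). Sdha of complex II fell by 0.94 ± 0.08 and the ATP synthase subunit gene Atp5b by 0.78 ± 0.07. Of 18 glycolysis and lactate genes 11 were higher and 3 lower, 10 and 3 after quantile normalization, and 9 and 7 after the median shift.

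The monocarboxylate transporters, which carry lactate, rose most in this list. Slc16a3 (MCT4) measured 11.21 and 11.24 in WT EBs D4, against 8.54 and 8.54 in WT ESC D0 (2.68 ± 0.07, adjusted p = 9.05e-08), and Slc16a1 (MCT1) rose by 2.32 ± 0.08. The glucose transporter gene Slc2a1 rose by 1.09 ± 0.07, Tpi1 by 1.55 ± 0.07, Ldha by 0.88 ± 0.07 and Pgk1 by 0.75 ± 0.07. Ldhb, the lactate dehydrogenase subunit of oxidative tissues, fell by 1.39 ± 0.09, and Hk2 by 0.65 ± 0.08.

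Genes of the ATF4 amino acid response fell, with 12 of 16 lower and 3 higher under both scalings and a median of -1.03. Cth, which makes cysteine, measured 9.92 and 10.02 in WT EBs D4, against 12.84 and 12.82 in WT ESC D0 (-2.86 ± 0.08, adjusted p = 9.11e-08). Shmt2 of mitochondrial one-carbon metabolism fell by 1.88 ± 0.08, the cystine transporter gene Slc7a11, dim on both EB arrays, by at least 1.77 ± 0.14, asparagine synthetase (Asns) by 1.76 ± 0.07, Chac1 by 1.34 ± 0.07 and Atf4 by 0.88 ± 0.07. Ddit4, an inhibitor of mTORC1, was the largest exception, with 11.76 and 11.85 in WT EBs D4, against 9.11 and 9.17 in WT ESC D0 (2.67 ± 0.08). Of 19 cholesterol synthesis genes 8 were higher and 5 lower as deposited, 8 and 4 after quantile normalization, 8 and 11 after the median shift, and 10 and 4 of 18 in the workbook. The later enzymes Ebp, Sc5d and Dhcr7 rose by 1.10 ± 0.09, 1.05 ± 0.09 and 0.92 ± 0.09 and the sterol sensor gene Insig1 by 1.22 ± 0.08, whereas the early enzyme gene Hmgcs1 fell by 0.44 ± 0.07.

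B2m, the light chain of MHC class I, measured 12.05 and 12.14 in WT EBs D4, against 10.51 and 10.61 in WT ESC D0 (1.53 ± 0.09), and the peptide transporter gene Tap1 rose by 1.27 ± 0.09. Ifit1, a classical interferon-induced gene, was dim on all 4 arrays and was not called (0.05 ± 0.11). In the list of interferon response and MHC class I genes 7 of 15 were higher and none lower as deposited, 7 and 1 after quantile normalization, and 5 and 1 after the median shift. Of 15 cytosolic ribosomal protein genes 1 was higher and 3 were lower as deposited (1 lower without WT ESC replicate 1 or WT EB replicate 1), and 10 were lower after the median shift. Of 14 genes of PML nuclear bodies 10 were lower and none higher, and 8 lower and 2 higher after quantile normalization. Pml, which builds these bodies, measured 10.88 and 10.84 in WT EBs D4, against 11.70 and 11.68 in WT ESC D0 (-0.83 ± 0.08, adjusted p = 4.25e-05). Usp7, Senp1 and Daxx fell by 0.84 ± 0.07, 0.72 ± 0.09 and 0.58 ± 0.09.

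The same 4 days in PML KD cells gave the only other measurement of this transition in the series. Its day 0 arrays stood apart: the Y-linked gene Eif2s3y changed by 4.85 between day 0 and day 4 in PML KD cells and by -0.02 in WT cells, and the Y-linked Uty by 3.50 in PML KD cells and 0.05 in WT cells. What this difference in the PML KD day 0 cells did to the values below was not tested. In PML KD cells 24.3% of all genes were called higher and 25.2% lower at day 4. The difference between both changes (PML KD minus WT) was called for 50.6% of genes, 25.2% positive and 25.4% negative. Because the genes that follow were picked on the WT change, which is also part of that difference, a smaller change in PML KD cells is favoured by the choice.

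Of the 632 genes at least 2-fold higher in WT, 544 were also called higher in PML KD cells, 34 were called lower and 54 were not called. Their median difference was 1.12 in PML KD and 1.46 in WT. Of the 841 genes at least 2-fold lower in WT, 500 were called lower in PML KD cells, 141 were called higher and 200 were not called, with medians of -0.43 in PML KD and -1.27 in WT.

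Among the lists, 19 of the 24 visceral endoderm genes had a called negative difference between the changes and 2 a positive one, with a median change of 1.59 in PML KD and 3.46 in WT. Apob changed by 3.07 in PML KD and 6.01 in WT (difference -2.94 ± 0.14, adjusted p = 8.85e-06), and Afp by 3.99 in PML KD and 6.70 in WT (difference -2.71 ± 0.11, adjusted p = 6.95e-06). Uptake genes went both ways. Amn changed by 1.46 in PML KD and 3.25 in WT (difference -1.79 ± 0.21, adjusted p = 0.00024), and Lrp2 by 3.03 in PML KD and 2.47 in WT (difference 0.56 ± 0.10, adjusted p = 0.00224). Cubn changed by 5.80 in PML KD and 5.07 in WT (difference 0.73 ± 0.14, adjusted p = 0.00291), and Dab2 by 4.69 in PML KD and 4.49 in WT, a difference that was not called (0.20 ± 0.24, adjusted p = 0.524).

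Replication and respiration genes differed in the other direction. Of 24 replication and mitosis genes 19 had a positive called difference and 1 a negative one, with a median change of 0.16 in PML KD and -0.55 in WT. Of 23 oxidative phosphorylation genes 20 had a positive and none a negative called difference, with medians of 0.09 in PML KD and -0.63 in WT. Of 12 trophoblast genes 10, and of 15 smooth muscle and actin genes 12, had a positive called difference and none a negative one. Naive pluripotency genes fell in both, with a median of -1.63 in PML KD and -2.18 in WT, and Fos changed by -0.31 in PML KD and -3.18 in WT (difference 2.88 ± 0.10, adjusted p = 5.32e-06).

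**Figure D4:**
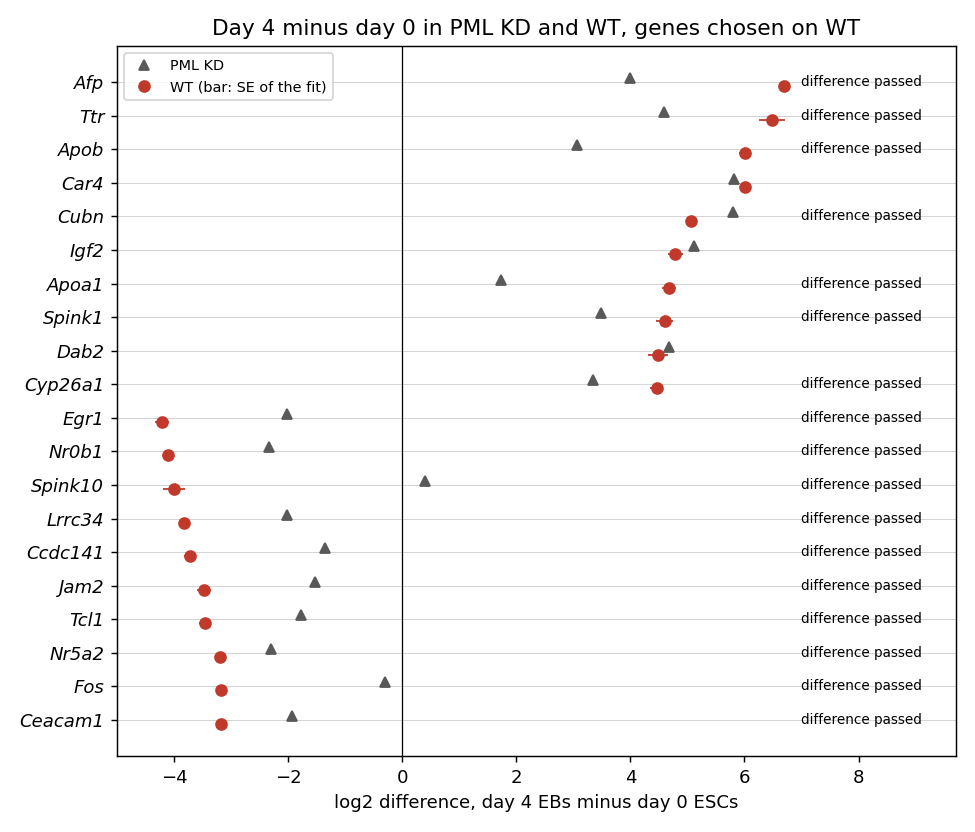
Log2 difference between day 4 EBs and day 0 ESCs (horizontal axis) in PML KD (triangles) and WT (circles, bars are standard errors) for the 10 largest rises and 10 largest falls of WT. The label "difference passed" marks the 17 genes whose changes differed with an adjusted p under 0.05, and Car4, Igf2 and Dab2 carry none.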

How the data were processed

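RNA of 8 arrays (4 groups of 2) was measured, and the 4 WT arrays make up the comparison described. The deposited array table holds 1 linear signal intensity per probe set and array, made by the authors with the Transcriptome Analysis Console per the submitters' processing notes. For background correction and array normalization, the method was not given in the sources used here. Per gene, the deposited workbook holds log2 values, and its 4 group-mean columns were not used. Of 35556 probe sets, 21789 had 1 gene symbol, 1621 had several and 12146 were not listed in the annotation, which left 19938 genes. For the 999 genes with several probe sets, the brightest probe set on average was used. Log2 of the intensities as deposited was fitted with limma 3.58.1 in R 4.3.3 over all 8 arrays with 1 mean per group (4 residual and 4.31 prior degrees of freedom). Its p-values were adjusted by the Benjamini-Hochberg method across the whole gene table, and the fit was tested on simulated data. The number of arrays limits the precision.

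The 44 gene lists hold 804 genes, of which 720 were measured, and the others were not analysed here. The members and lists were chosen with earlier results of these data known. Genes named in the text are the 10 largest rises and 10 largest falls, the key genes of each list, and up to 4 genes per list with the smallest adjusted p. Alb, Foxa1, Tpbpa, Krt5, Krt14, Cdh5, Eif2s3y, Uty, Fgfbp1 and Dppa3 were named after their values were seen. Cdh5, Fgfbp1 and Dppa3 are not among the 281 named genes whose calls were followed across the alternatives. Replicate numbers were not used to pair the samples in the main fit. The deviations of same-numbered arrays from their group means correlated at 0.02 in WT and -0.08 in PML KD. These values cannot show whether the samples were paired. Alternatives were other scalings, the workbook, the 4 WT arrays alone, a replicate block, the mean of all probe sets, a filter on dim genes, 32 added before log2, an intensity trend, and each WT array left out in turn. Sequences are from RefSeq tables of GRCm38.p6.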

Additional observations from a re-analysis of the deposited data

Results flagged for a closer look

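For 17 of the 20 genes with the largest WT changes, the change from day 0 to day 4 differed between PML KD and WT cells in the limma interaction term (adjusted p under 0.05, beside 50.6% of all genes). These genes were chosen on the WT change, which is part of the difference. Among the genes that rose in WT, the difference (PML KD minus WT, log2) was -2.95 for Apoa1, -2.94 for Apob, -2.71 for Afp, -1.90 for Ttr, -1.11 for Spink1 and -1.11 for Cyp26a1, and it was positive for Cubn at 0.73. Among the genes that fell in WT, it was 4.40 for Spink10, 2.88 for Fos, 2.37 for Ccdc141, 2.19 for Egr1, 1.94 for Jam2, 1.80 for Lrrc34, 1.77 for Nr0b1, 1.68 for Tcl1, 1.24 for Ceacam1 and 0.90 for Nr5a2. Spink10 changed by 0.40 in PML KD cells, which was not called there (adjusted p = 0.116), and by -4.01 in WT cells. The PML KD ESC D0 arrays also differed from the others in Y-linked genes, and the part of that in these values was not tested.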

How the results depend on the processing

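All 1473 genes called at least 2-fold stayed called in the same direction under every alternative scaling, model and left-out array that tested them, except 1 gene with the mean of all probe sets (1472) and the workbook, where 1343 of 1425 did. The count of genes called higher, 4849, was 2243 after the median shift and 2726 among the 9969 genes above the median signal. Genes lower by at least 2-fold, 841, numbered 1511 after the median shift and 1475 in the workbook, where those higher by at least 2-fold numbered 1400 instead of 632. With 1 WT array left out, 7637 to 8465 genes were called, 3437 to 3992 higher and 4200 to 4613 lower, 630 to 660 higher and 817 to 903 lower by at least 2-fold. With the replicate number as a block, 9859 genes were called instead of 9946, 1 of the 281 genes named in the text (Gsc, adjusted p = 0.0592) lost its call and no other call of those genes changed. Whether the replicate numbers pair the samples is not known. Of these 281 genes, 1 turned after the median shift (Fgfr1, -0.20) and 17 in the workbook: Acta2 (-1.11), Cnn1 (-0.44), Col1a1 (-0.71), Eif2s3y (1.22), Elf5 (-1.09), Fgf8 (-0.89), Hmga2 (0.41), Hoxb1 (-0.11), Isl1 (0.29), Mesp1 (-0.39), Myh6 (-1.75), Myl7 (1.73), Nes (-0.74), Snai1 (-0.017), Tcf15 (0.045), Wnt3 (-0.014) and Wnt5a (-0.38). The cause was not tested. A further 7 of the 281 genes, not called as deposited, were called in the workbook in the same direction. Among them were Kdr (-1.42), Krt14 (1.83), Alb (0.80), Grb10 (0.64) and Cdk1 (-0.46). The small differences of Evx1, Gsc, Mesp1, Mixl1, Mki67, Postn, Snai1, Sp5, Stra6, Thbd and Wnt3 were not called without at least 1 WT array (-0.28 to 0.39), and all of these but Snai1 also lost their call after quantile normalization. Myl4 was not called without WT EB replicate 1 or WT ESC replicate 2 (-0.37 each), nor Ryr2 without WT ESC replicate 2 (-0.29). Axin2, Foxf1, Id1 and Mybpc3 were not called after the median shift, and Aldh1a2, Axin2, Bmp7, Cdkn1c, Ezh2, Hand1, Stat3 and Zfp36 were not called in the workbook. Dim probe sets limit what small differences show, and 2 arrays per group limit every error given.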

Other observations

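The snoRNA and microRNA genes were grouped after their values were seen. In WT EBs D4, of 52 snoRNA genes, 42 were called higher and 1 lower than in WT ESC D0, with a median difference of 0.63, and 44 were higher and 2 lower after quantile normalization (median 0.75). Of 300 microRNA genes, 126 were higher and 3 lower, with a median of 0.28, and 70 were higher and 12 lower after quantile normalization (median 0.12). Beside these, 24.3% of all genes were higher and 25.6% lower as deposited, and 17.4% and 26.2% after quantile normalization. In PML KD cells the median differences between day 4 and day 0 were -0.49 for the snoRNA genes and -0.15 for the microRNA genes. The 12146 probe sets without a listed gene had a median difference of -0.19 in PML KD cells and 0.17 in WT cells.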
